A study of Mus musculus with 12 samples.

Results

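The aminoacyl-tRNA synthetase genes of the mouse were followed through the transition from embryonic stem cells (ESCs) to epiblast-like cells (EpiLCs). They were taken from the gene table by symbol: the symbols of the pattern "amino acid letter plus ars", with or without a final 1 or 2, plus Farsa, Farsb, Eprs and Ears2. A final 2 marked the mitochondrial enzyme. This gave 37 genes of 22462, of which 20 are cytosolic and 17 mitochondrial, and all 37 passed the filter on low counts that 11750 genes passed.

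A synthetase attaches an amino acid to its matching tRNA, and the charged tRNA then brings it to the ribosome, so every protein a cell makes passes through these enzymes. The cytosol and the mitochondrion translate separately, and most amino acids therefore have a pair of synthetase genes in the nucleus, while Gars and Kars each make both forms. The enzymes fall into 2 unrelated structural classes, and 8 of the cytosolic genes encode members of the multi-synthetase complex, a large assembly held together by scaffold proteins. Many cytosolic synthetase genes are known targets of ATF4, the transcription factor that cells use when amino acids run short.

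ESCs were grown in Knockout DMEM and serum with LIF and the 2i inhibitors (PD0325901 and CHIR99021), which hold the naive state. For EpiLCs, LIF and 2i were taken away and the cells harvested about 56 hours afterwards. The labels name no line, and the methods of the study name for this differentiation a single ESC line that carries fluorescent reporters of 2 miRNA clusters. From each cell type 3 libraries of ribosome protected fragments (RPFs), the stretches of mRNA covered by ribosomes, and 3 of total RNA were sequenced, 12 in all. Library totals were 2681439 to 14655015 counts, the lowest in EpiLC RPF replicate 2. Values per library are CPM, the count of a gene as a share of its library, scaled by the trimmed mean of M values (TMM), so every change is relative to the rest of the library. In such bulk samples fewer cells of a type and less RNA per cell cannot be told apart. Nothing in the labels says that the libraries came from separate cultures. The study calls its replicates biological, but does not describe whether each was a separate culture. The p-values therefore measure the spread between these libraries.

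The cell states were checked by their markers. All 6 naive markers fell and all 6 EpiLC markers rose in total RNA and in RPF. The 2 genes listed as pluripotent in both states did not hold steady, as both fell in both assays. Sox2 had a log2 change of -2.72 in mRNA and -2.96 in RPF, and Pou5f1 had -0.65 and -0.50. Markers of other cell types were low, and some moved with the transition. The summed level of 5 fibroblast genes was 5.96 to 6.87 CPM in ESC RPF and 30.9 to 34.3 CPM in EpiLC RPF, with Postn at 0 in every library of both groups. The summed level of 3 trophoblast genes was 0.176 to 1.61 CPM in ESC RPF and 9.79 to 14.2 CPM in EpiLC RPF, with Elf5 at 0 throughout. Cdx2 was also at 0 in every EpiLC RPF library, so the EpiLC RPF sum came from Krt7 alone. For 3 neural genes the sum was 10.04 to 13.8 CPM in ESC RPF and 20.6 to 28.3 CPM in EpiLC RPF. The ranges of 6 primitive endoderm genes overlapped between the cell types (7.54 to 8.72 and 7.76 to 10.5 CPM in RPF). The sum of 4 genes of mesoderm and endoderm was 12.1 to 18.2 CPM in ESC RPF and 7.76 to 9.498 CPM in EpiLC RPF. In total RNA the ranges of these 4 genes overlapped, with 5.92 to 7.42 CPM in ESCs and 3.85 to 7.57 CPM in EpiLCs. The part of this in the results on synthetases was not tested.

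The cytosolic synthetase genes fell almost together. In total RNA 19 of 20 fell and 1 rose, and in RPF 18 fell, none rose and 2 did not pass the test (limma, adjusted p below 0.05 over all tested genes). Of all 11750 tested genes, 30.7% fell and 34.6% rose in total RNA, and 28.7% fell and 31.1% rose in RPF. The median log2 change of the 20 genes was -0.34 in mRNA and -0.33 in RPF, beside 0.03 and 0.01 over all genes. The EpiLC libraries lay below all ESC libraries, without overlap, for 19 of the 20 genes in mRNA and 18 in RPF, beside 33.4% and 30.9% of all genes, and above them for 1 gene in each, beside 36.9% and 32.2%. These genes were also measured more precisely than most, with a median SE of 0.05 in mRNA against 0.12 over all genes, and the part of this in the counts was not tested. Only Aars in mRNA and Tars in RPF passed the limit of 1 on the log2 scale that the study adds to its test, where 9.7% and 10.6% of all genes fell past it.

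The mitochondrial genes fell more often than they rose, and some did not pass the test. In total RNA 9 of 17 fell (52.9%), 2 rose and 6 did not pass, beside 30.7% of all genes that fell and 34.6% that rose. In RPF 8 fell (47.1%), 2 rose and 7 did not pass, beside 28.7% and 31.1%. Their median change was -0.22 in both assays. None passed the limit of 1 on the log2 scale. Yars2, the tyrosine enzyme, was among those that rose in both assays.

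**Figure D1:**
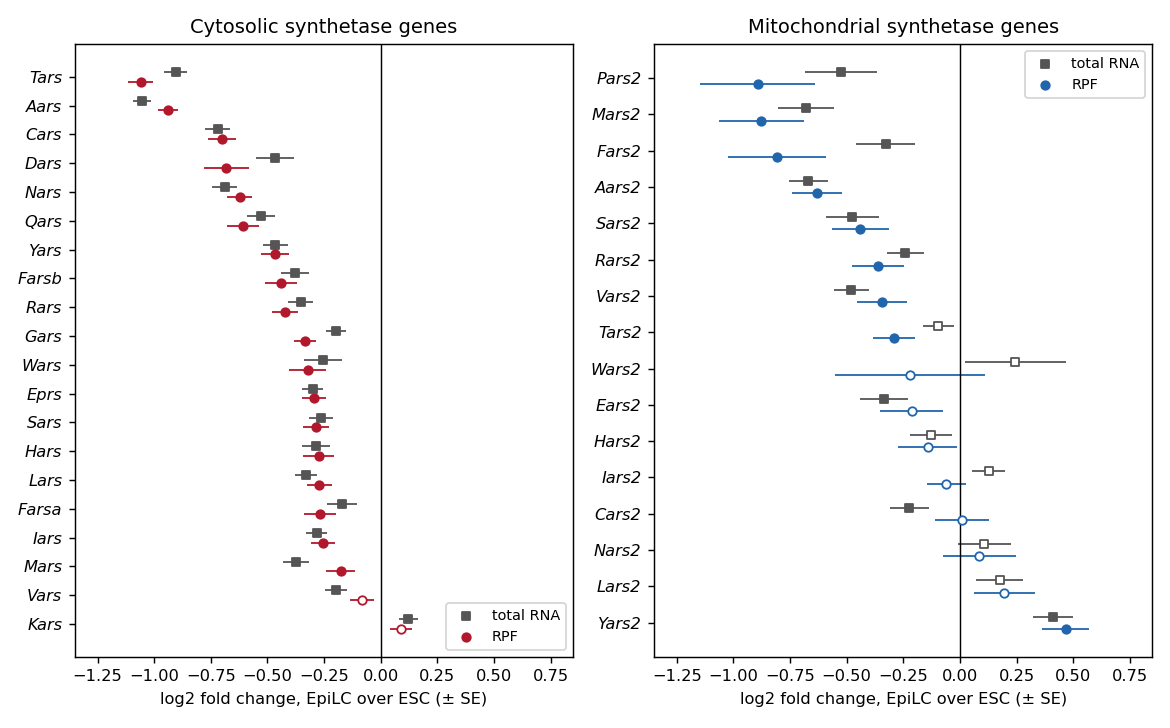
Log2 fold change of the synthetase genes, EpiLC over ESC, in total RNA (squares) and RPF (circles), with SE from limma (3 libraries per group); filled symbols passed the test and open ones did not. Among the cytosolic genes every RPF value except that of Kars lies below 0, while the mitochondrial genes run from -0.89 for Pars2 to 0.47 for Yars2.

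Taken as shares of a library, the 20 cytosolic genes held 1.62% ± 0.0179 (SD, n = 3) of the RPF counts in ESCs and 1.21% ± 0.0138 in EpiLCs. Of the total RNA counts they held 1.36% ± 0.0199 and 1.02% ± 0.0307. In neither assay did the ESC and EpiLC libraries overlap. The 17 mitochondrial genes held far less, 0.0909% ± 0.00222 of the RPF counts in ESCs and 0.0842% ± 0.00167 in EpiLCs. Their total RNA share was 0.104% ± 0.000828 in ESCs and 0.0977% ± 0.00411 in EpiLCs. Here too the groups did not overlap, but with 3 libraries against 3 an exact permutation test cannot go below 0.10.

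Tars, which charges threonine tRNA in the cytosol (ENSMUSG00000022241.5, chromosome 15, 11384011 to 11399494, mm10), had the largest fall in RPF. Positions printed with a gene ID, here and below, span the counted coding sequence and not the whole gene. For Tars, ESC RPF libraries had 785, 766 and 740.2 CPM, and EpiLC RPF libraries had 371, 366 and 361. Total RNA held 594, 596 and 578 CPM in ESCs and 319, 299.96 and 323 in EpiLCs. The groups were far apart in both assays, and each EpiLC library held less than any ESC library. The log2 change was -1.06 ± 0.06 (SE, adjusted p 2.86e-14) in RPF and -0.91 ± 0.05 (adjusted p 4.76e-14) in mRNA.

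Aars charges alanine tRNA (ENSMUSG00000031960.14, chromosome 8, 111036975 to 111055204, mm10) and had the highest RPF level per length of all synthetase genes in ESCs. Its RPF level was 2886, 2951 and 3091 CPM in ESCs and 1534, 1579 and 1558 CPM in EpiLCs. Its total RNA level was 1988, 1999 and 1973 CPM against 959, 938 and 972 CPM. No library of one cell type came near those of the other. The log2 change was -1.05 ± 0.04 (adjusted p 5.65e-17) in mRNA and -0.94 ± 0.04 (adjusted p 1.78e-15) in RPF.

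Cars, the cysteine enzyme (ENSMUSG00000010755.17, chromosome 7, 143557872 to 143592640, mm10), came next among the cytosolic genes. ESC RPF libraries had 436, 419 and 439 CPM and EpiLC RPF libraries 252, 257 and 287 CPM. In total RNA the values were 363, 365 and 359.6 CPM, then 221, 221 and 218 CPM. Again the groups did not overlap, with EpiLC RPF replicate 3 the highest of the EpiLC RPF libraries. The change was -0.70 ± 0.06 (adjusted p 5.47e-10) in RPF and -0.72 ± 0.06 (adjusted p 2.63e-11) in mRNA on the log2 scale.

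**Figure D2:**
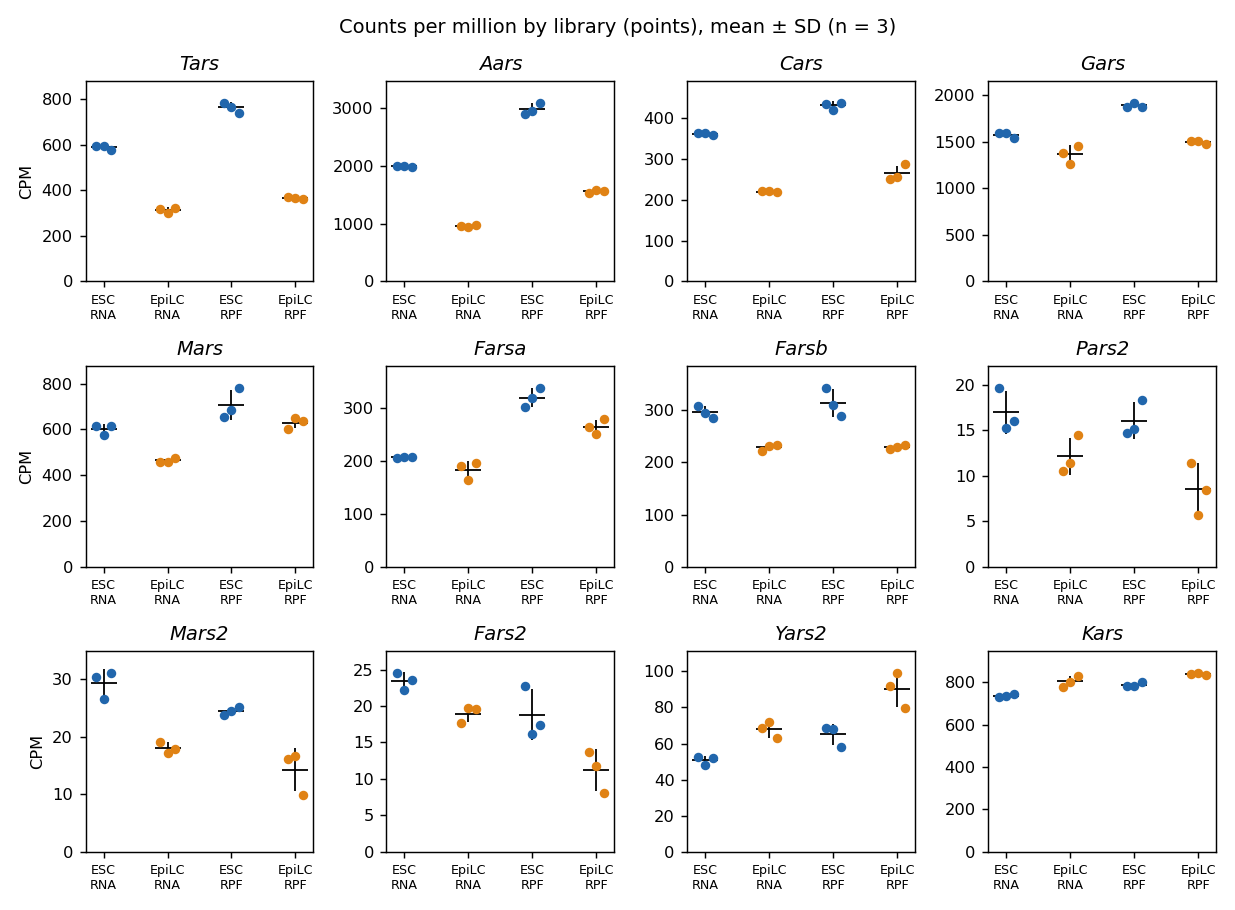
CPM of 12 synthetase genes in each of the 12 libraries (points, blue for ESC and orange for EpiLC), with the mean and SD of 3 libraries in black; each panel starts at 0 and has its own scale. Tars, Aars and Cars are lower in every EpiLC library than in any ESC library of the same assay, and Yars2 is higher.

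Tars and Aars were among the genes whose promoters held the letters of the amino acid response element, the sequence to which ATF4 binds with a C/EBP partner. RefSeq windows on GRCm38.p6, from 250 bases before to 50 after the start site, were given for 27 of the 37 genes, 13 cytosolic and 14 mitochondrial. The letters TGATGNAA, searched on both strands, were found in 5 of these genes, all of them cytosolic (Aars, Gars, Iars, Tars and Yars), and in 4.51% of all 26994 genes with a window. A match is a description of the letters and not a bound site, and Cars, Hars, Hars2, Lars, Nars, Pars2, Rars, Vars and Wars are among the genes without a window. The stretch around 1 match of each gene is shown so that the letters can be read in their surroundings, with the matched letters in capitals, 5′ to 3′ on the strand of the gene. They lie at chr8:111033841-111033868 (+) for Aars, chr15:11399656-11399683 (-) for Tars, chr4:129189896-129189923 (+) for Yars, chr6:55037961-55037988 (+) for Gars and chr13:49682127-49682154 (+) for Iars.
Aars: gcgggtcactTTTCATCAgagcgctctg
Tars: aggagtcccgTTGCATCAgctggttagc
Yars: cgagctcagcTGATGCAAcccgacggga
Gars: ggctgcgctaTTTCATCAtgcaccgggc
Iars: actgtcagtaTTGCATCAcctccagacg

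The capitals of Aars, Tars, Gars and Iars are the reverse complement of the searched letters, and those of Yars read along the gene. Counting the start site as base 1, with no base 0, the matches shown begin at 10 in Aars, -15 in Tars, -30 in Gars, 8 in Iars and 4 in Yars. The 5 genes with the letters ran over nearly the whole range of falls in RPF, from -1.06 for Tars through -0.94 for Aars, -0.47 for Yars and -0.34 for Gars to -0.25 for Iars. The E-box CACGTG, a palindrome bound by Myc and related factors, was found in Aars, Farsb, Iars, Tars and Ears2, which is 5 of the 27 genes, and in 8.09% of all genes with a window. It overlapped none of the matches shown.

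Synthetases of the multi-synthetase complex and free cytosolic ones fell to a like extent in number. Of the 8 complex genes 7 fell and 1 rose in mRNA, and 7 fell in RPF, with medians of -0.34 and -0.28. Of the 12 others, 12 fell in mRNA and 11 in RPF, with medians of -0.33 and -0.39. The background of falling genes is that given above, and the difference between the 2 sets was not tested.

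Within the complex, Dars (aspartate) had the largest fall in RPF, -0.68 ± 0.10 beside -0.47 ± 0.08 in mRNA. ESC RPF replicate 1 of Dars, at 440.3 CPM, stood above the other ESC RPF libraries, at 320.4 and 332 CPM, and all 3 lay above the EpiLC RPF libraries, at 245, 215 and 215 CPM. Qars (glutamine) had -0.53 in mRNA and -0.61 in RPF. Rars (arginine) had -0.35 and -0.42 in mRNA and RPF. The bifunctional Eprs, which charges both glutamate and proline tRNA from a single chain, had -0.30 in mRNA and -0.29 in RPF. The large hydrophobic amino acids were close to each other, with Lars (leucine) at -0.33 in mRNA and -0.27 in RPF. Iars (isoleucine) had -0.28 and -0.25 in the same order.

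Mars, the methionine enzyme (ENSMUSG00000040354.14, chromosome 10, 127296294 to 127311584, mm10), also sits in the complex, and supplies the start codon as well as internal ones. Its total RNA level was 616, 575 and 614 CPM in ESCs and 459, 459 and 476 CPM in EpiLCs. In RPF the values were closer, with 654, 684 and 783 CPM in ESCs against 604, 649.5 and 635 CPM in EpiLCs. The 2 RPF groups did not overlap, but their gap was narrow, and the ESC libraries were the more spread. The log2 change was -0.37 ± 0.06 (adjusted p 4.39e-06) in mRNA and -0.18 ± 0.06 (adjusted p 0.0196) in RPF, where it was -0.12 (adjusted p 0.0998) without ESC RPF replicate 3.

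Kars, the lysine enzyme that serves both cytosol and mitochondrion, went the other way from all other cytosolic genes. Its total RNA level was 733, 735 and 744 CPM in ESCs and 780.0, 803 and 831 CPM in EpiLCs. Its RPF level was 781, 783 and 799.8 CPM, then 841, 845 and 836 CPM. The EpiLC libraries lay above the ESC ones in both assays, by little. The log2 change of 0.12 ± 0.04 in mRNA passed the test (adjusted p 0.0162), and that of 0.09 ± 0.05 in RPF did not (adjusted p 0.112). The mRNA call was lost with DESeq2 (0.08, adjusted p 0.122) and with size factors of DESeq2 in limma (0.08, adjusted p 0.110). Leaving out 1 library at a time lost the mRNA call of Kars in 9 of 12 cases, among them all 6 without an RPF library.

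Gars, the other gene with both a cytosolic and a mitochondrial product (ENSMUSG00000029777.10, chromosome 6, 55038087 to 55079345, mm10), charges glycine tRNA and fell. Total RNA libraries had 1588, 1587 and 1539 CPM in ESCs and 1382, 1262 and 1453 CPM in EpiLCs. RPF libraries had 1874, 1919.8 and 1872 CPM, then 1503, 1506 and 1476 CPM. The groups were apart in both assays, with the EpiLC total RNA libraries the most spread. The log2 change was -0.20 ± 0.04 (adjusted p 0.000311) in mRNA and -0.34 ± 0.05 (adjusted p 1.92e-06) in RPF.

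The phenylalanine enzyme of the cytosol is built from 2 kinds of subunit, the catalytic alpha chain made by Farsa and the beta chain made by Farsb. Farsa (ENSMUSG00000003808.18, chromosome 8, 84857080 to 84869004, mm10) had 302, 319.7 and 339 CPM in ESC RPF and 264, 252 and 279 CPM in EpiLC RPF. Its total RNA level was 206, 208 and 209 CPM, then 190.0, 164 and 197 CPM. Both assays kept the groups apart, with EpiLC total RNA replicate 2 the lowest library. The log2 change of Farsa was -0.17 ± 0.07 (adjusted p 0.0294) in mRNA and -0.27 ± 0.07 (adjusted p 0.00248) in RPF. The mRNA call was lost without any 1 of the 3 ESC total RNA libraries (adjusted p 0.0523, 0.0592 and 0.0633) and without EpiLC total RNA replicate 2, where the change was -0.10 (adjusted p 0.200). 

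Farsb (ENSMUSG00000026245.16, chromosome 1, 78425194 to 78488797, mm10) had 344, 309.5 and 289 CPM in ESC RPF and 226, 230.1 and 234 CPM in EpiLC RPF. In total RNA it had 308, 295 and 286 CPM, then 222, 232 and 233 CPM. No groups overlapped. Its change was -0.38 ± 0.06 (adjusted p 7.64e-06) in mRNA and -0.44 ± 0.07 (adjusted p 9.45e-06) in RPF on the log2 scale. 

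Per length, as TPM (counts per base of counted sequence, scaled to the same sum in every library), the ratio of Farsa to Farsb in total RNA was 0.778, 0.821 and 0.848 in ESCs and 0.997, 0.820 and 0.985 in EpiLCs. In RPF the ratio was 1.02, 1.202 and 1.37 in ESCs and 1.36, 1.28 and 1.39 in EpiLCs. Fragments on the alpha chain thus outnumbered those on the beta chain per length in every RPF library, while its RNA did not in any. The ESC and EpiLC ratios overlapped in both assays.

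Among the remaining free cytosolic enzymes, Nars (asparagine) had -0.69 in mRNA and -0.62 in RPF, the largest fall after Cars. Yars (tyrosine) had -0.46 in mRNA and -0.47 in RPF. Wars (tryptophan) had -0.26 and -0.32 in mRNA and RPF. These 3 passed the test in both assays, as did the serine and histidine enzymes. Sars (serine) had -0.26 in mRNA and -0.28 in RPF. Hars (histidine) had -0.29 and -0.27 in that order. Vars (valine) was the exception, with -0.20 in mRNA (adjusted p 0.000783) and -0.08 in RPF (adjusted p 0.198). A correction for GC content, which is 60.0% in Vars and the highest of the cytosolic genes, gave Vars an RPF change of -0.26 (adjusted p 5.66e-05).

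The 13 cytosolic genes placed, from general knowledge, on a list of ATF4 targets were set beside the 7 others. Of the 13, all fell in mRNA and 12 in RPF, with medians of -0.33 and -0.32. Of the 7, 6 fell in each assay, with medians of -0.35 and -0.42. The largest falls (Tars, Aars and Cars) were on the ATF4 list, and the next ones were shared between both lists. The split by structural class left out Eprs, which belongs to both. Of the cytosolic genes, 9 of 9 in class I fell in mRNA and 8 in RPF, and 9 of 10 in class II fell in each. Of all tested genes, 30.7% fell in mRNA and 28.7% in RPF. Differences between these sets were not tested.

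Among the mitochondrial genes the largest falls were in genes with few counts. Pars2, the proline enzyme (ENSMUSG00000043572.7, chromosome 4, 106653068 to 106654558, mm10), had 14.7, 15.1 and 18.3 CPM in ESC RPF and 11.4, 5.70 and 8.44 CPM in EpiLC RPF, the lowest from 15 counts. Its total RNA level was 19.7, 15.3 and 16.03 CPM, then 10.5, 11.4 and 14.4 CPM. The groups did not overlap, but the EpiLC RPF values spread over a wider range than the gap between the groups. The log2 change was -0.89 ± 0.25 (adjusted p 0.00378) in RPF and -0.53 ± 0.16 (adjusted p 0.00537) in mRNA, and without EpiLC total RNA replicate 1 the mRNA change was -0.37 (adjusted p 0.102).

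Mars2, which charges the methionine tRNA of the organelle (ENSMUSG00000046994.9, chromosome 1, 55237285 to 55239000, mm10), had 23.8, 24.5 and 25.2 CPM in ESC RPF and 16.2, 16.7 and 9.95 CPM in EpiLC RPF. In total RNA it had 30.3, 26.6 and 31.1 CPM, then 19.1, 17.1 and 17.9 CPM. Every EpiLC library lay below every ESC library, with EpiLC RPF replicate 3 the lowest. The change was -0.88 ± 0.19 (adjusted p 0.000269) in RPF and -0.68 ± 0.12 (adjusted p 3.07e-05) in mRNA on the log2 scale.

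Fars2, a single-chain phenylalanine enzyme unlike its cytosolic counterpart (ENSMUSG00000021420.12, chromosome 13, 36204575 to 36537439, mm10), had 22.8, 16.2 and 17.4 CPM in ESC RPF and 13.7, 11.8 and 8.07 CPM in EpiLC RPF. Total RNA held 24.6, 22.2 and 23.6 CPM, then 17.6, 19.7 and 19.6 CPM. The groups were apart in both assays. The change was -0.81 ± 0.22 (adjusted p 0.00236) in RPF. In mRNA it was -0.33 ± 0.13 (adjusted p 0.0287), and this call was lost with edgeR (-0.31, adjusted p 0.0735) and DESeq2 (-0.35, adjusted p 0.0515). It was lost too without EpiLC total RNA replicate 1 (adjusted p 0.187), ESC total RNA replicate 1 (0.0915) or ESC total RNA replicate 3 (0.0571).

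A further 5 mitochondrial genes fell in RPF. Aars2 (alanine) had -0.67 in mRNA and -0.63 in RPF. Sars2 (serine) had -0.47 in mRNA and -0.44 in RPF, where EpiLC RPF replicate 2, at 69.6 CPM, lay within the ESC libraries, and the RPF change was -0.31 (adjusted p 0.0611) without EpiLC RPF replicate 3. Vars2 (valine) had -0.48 and -0.34 in mRNA and RPF. The arginine and threonine enzymes fell less. Rars2 had -0.24 in mRNA and -0.36 in RPF, with its mRNA call lost without EpiLC total RNA replicate 1 (-0.13, adjusted p 0.227). Tars2 had -0.10 in mRNA (adjusted p 0.221) and -0.29 in RPF (adjusted p 0.00836).

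Yars2, the tyrosine enzyme of mitochondria, was singled out after its values were seen, as it rose in both assays. The gene (ENSMUSG00000022792.16, chromosome 16, 16303029 to 16309491, mm10) had 52.5, 47.9 and 51.9 CPM in ESC total RNA and 68.4, 72.1 and 62.9 CPM in EpiLC total RNA. ESC RPF libraries had 68.6, 68.3 and 58.3 CPM and EpiLC RPF libraries 91.9, 99.3 and 79.6 CPM. The groups did not overlap in either assay, and the lowest library of each RPF group was replicate 3. The change was 0.41 ± 0.09 (adjusted p 0.000276) in mRNA and 0.47 ± 0.10 (adjusted p 0.000356) in RPF.

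The other 7 mitochondrial genes did not pass in RPF. Cars2 (cysteine) had -0.22 in mRNA, which passed (adjusted p 0.0251), and 0.01 in RPF. Ears2 (glutamate) had -0.34 in mRNA, which passed (adjusted p 0.00794), and -0.21 in RPF (adjusted p 0.195), which passed with the GC correction (-0.35, adjusted p 0.0199). The histidine, isoleucine, asparagine, leucine and tryptophan enzymes passed in neither assay. Hars2 had -0.13 in mRNA and -0.14 in RPF. Iars2 had 0.13 in mRNA and -0.06 in RPF. Nars2 had 0.11 and 0.09 in the same order. The values of Lars2 were 0.18 and 0.20. Those of Wars2, the member with the fewest counts (14 to 89 per library), were 0.25 ± 0.22 in mRNA and -0.22 ± 0.33 in RPF, so changes of this size were not detectable at its depth. The mRNA call of Cars2 was lost without ESC total RNA replicate 1 (adjusted p 0.124), EpiLC total RNA replicate 1 (0.0742) or EpiLC total RNA replicate 2 (0.0844).

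Cytosolic and mitochondrial partners for the same amino acid were set side by side in 17 pairs, in which Eprs stands beside both Ears2 and Pars2, and Farsa beside Fars2. In 12 of the 17 pairs both partners had an RPF change below 0. Every cytosolic partner was below 0, so this count depends on the mitochondrial partners alone. In 12 of the 17 the mitochondrial partner had the higher change. Yars and Yars2 moved in opposite directions (-0.47 against 0.47). Yars counted 6.29 ± 0.858 times (SD, n = 3) the TPM of Yars2 in ESC RPF and 3.30 ± 0.556 times in EpiLC RPF, and all ESC ratios lay above all EpiLC ratios. The opposite order held for methionine, where Mars counted 18.4 ± 1.24 times the TPM of Mars2 in ESC RPF and 29.8 ± 9.51 times in EpiLC RPF.

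The next question was whether ribosomes per mRNA changed. Translational efficiency (TE) is the ratio of RPF to total RNA, and its change was tested by the interaction of cell type and assay. None of the 37 genes passed in limma, and none passed with edgeR or DESeq2. Over all genes 0.57% rose and 0.63% fell in TE. At an unadjusted p below 0.05 there were 3 members, all of them cytosolic, where SEs were smaller. The share of all genes below that p was not counted, so this number shows nothing particular to the members. Mars had a TE change of 0.20 ± 0.09 (unadjusted p 0.0315, adjusted p 0.298). Gars had -0.14 ± 0.07 (unadjusted p 0.0474, adjusted p 0.355). The value of Tars was -0.15 ± 0.07 (unadjusted p 0.0496, adjusted p 0.359). 

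The members' TE changes ran from -0.48 ± 0.25 in Fars2 to 0.23 ± 0.15 in Cars2, with a median of -0.02. SEs of the TE change had a median of 0.08 in the cytosolic genes and 0.16 in the mitochondrial ones, beside 0.20 over all genes, so a TE change of the size of most values seen here was not detectable at this depth.

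**Figure D3:**
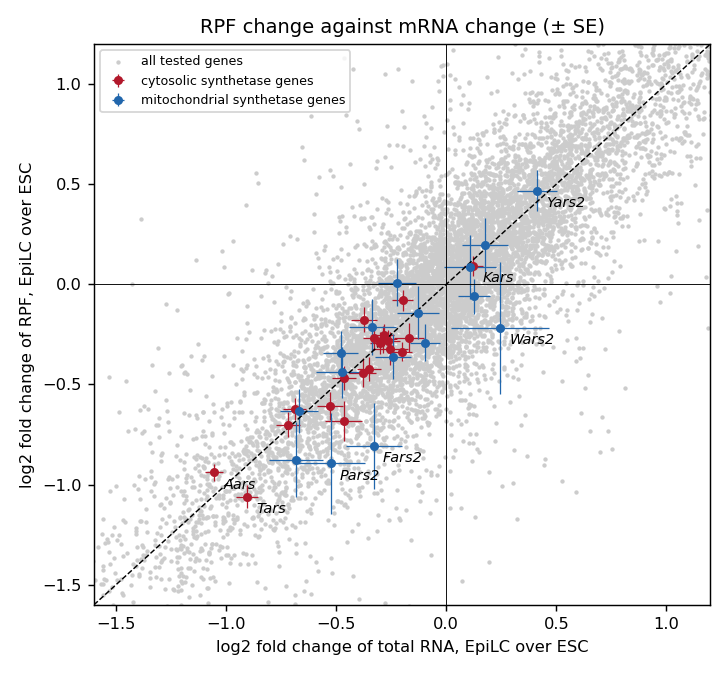
RPF change against mRNA change, log2 EpiLC over ESC, for all tested genes (grey), cytosolic synthetase genes (red) and mitochondrial ones (blue), with SE from limma; the dashed line marks equal change, and genes beyond the axes are not drawn. The members lie along the dashed line, from Aars and Tars at the lower left to Yars2 at the upper right, and Fars2 and Pars2 lie below it with wide errors.

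The level of TE within a cell type differed more between members than between cell types. It is given as log2 of RPF over total RNA relative to the median of all tested genes, so that 0 is the median gene, with no test. The cytosolic median was 0.26 in ESCs and 0.27 in EpiLCs, and 17 and 16 of the 20 genes lay above 0. The mitochondrial median was -0.10 in ESCs and -0.25 in EpiLCs, with 5 of 17 above 0 in each. Taken within each pair of same-numbered libraries, it was closer, at -0.16, -0.08 and -0.14 in ESCs and -0.18, -0.22 and -0.20 in EpiLCs. The median TE change of these 17 genes was -0.02. All 12 free cytosolic genes were above 0 in both cell types, against 5 and 4 of the 8 complex genes. 

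Wars was highest, at 1.199 ± 0.13 (SD over 3 pairs of libraries with the same number) in ESCs and 1.15 ± 0.15 in EpiLCs. Of the cytosolic genes Nars (0.77 and 0.84), Rars (0.77 and 0.68), Farsa (0.64 and 0.55) and Aars (0.60 and 0.72) came after it, in this order in ESCs, while in EpiLCs Aars lay above Rars and Farsa. The cytosolic genes below 0 in ESCs were Eprs (-0.14 and -0.16), Qars (-0.09 and -0.16) and Iars (-0.07 and -0.04), and in EpiLCs Dars (0.11 and -0.12) joined them. Of the mitochondrial genes Sars2 (0.64 and 0.78) and Yars2 (0.38 and 0.43) stood above the rest. Vars2 was the lowest member in ESCs, at -0.49 ± 0.06, and Fars2 in EpiLCs, at -0.77 ± 0.45. Spearman's rho of the TE level between ESCs and EpiLCs was 0.911 over the 37 members and 0.885 over all tested genes, a description across genes of the same 12 libraries.

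**Figure D4:**
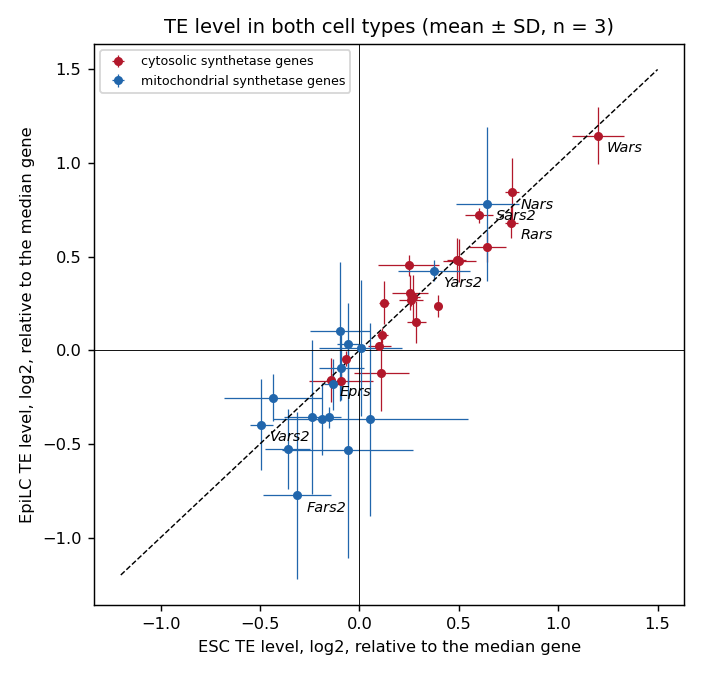
TE level of the synthetase genes in ESCs and EpiLCs, log2 relative to the median gene, as mean and SD of 3 library pairs, cytosolic in red and mitochondrial in blue; the dashed line marks equal levels. The points follow the line from Vars2 and Fars2 at the lower left to Wars at the upper right, and most red points lie above 0 on both axes.

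Levels between genes were compared per length, as TPM. In ESC RPF the cytosolic genes had a median of 324 TPM and ran from Qars at 192 ± 15.9 (SD, n = 3) to Aars at 1266 ± 34.7. Aars, Nars (1203 ± 9.80) and Gars (1073 ± 28.2) formed the top, followed by Sars (706 ± 30.8), Kars (521 ± 3.66) and Tars (438 ± 16.8). Qars and Hars (192 ± 2.58), the lowest, did not differ beyond their spread. The mitochondrial genes had a median of 28.3 TPM and ran from Wars2 at 6.02 ± 0.786 to Iars2 at 74.1 ± 2.58, so that even the highest of them lay below every cytosolic gene.

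In EpiLC RPF the order of the top changed. Gars led with 872 ± 10.5 TPM, ahead of Nars at 809 ± 73.1 and Aars at 681 ± 6.58. Kars (570.4 ± 3.15) came close to Sars (595 ± 12.9), and Tars, at 215 ± 3.62, lay below the cytosolic median of 254. The mitochondrial median was 25.3 TPM, and Yars2, at 82.2 ± 8.94, stood above Iars2 at 72.4 ± 9.44, within the spread of both.

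**Figure D5:**
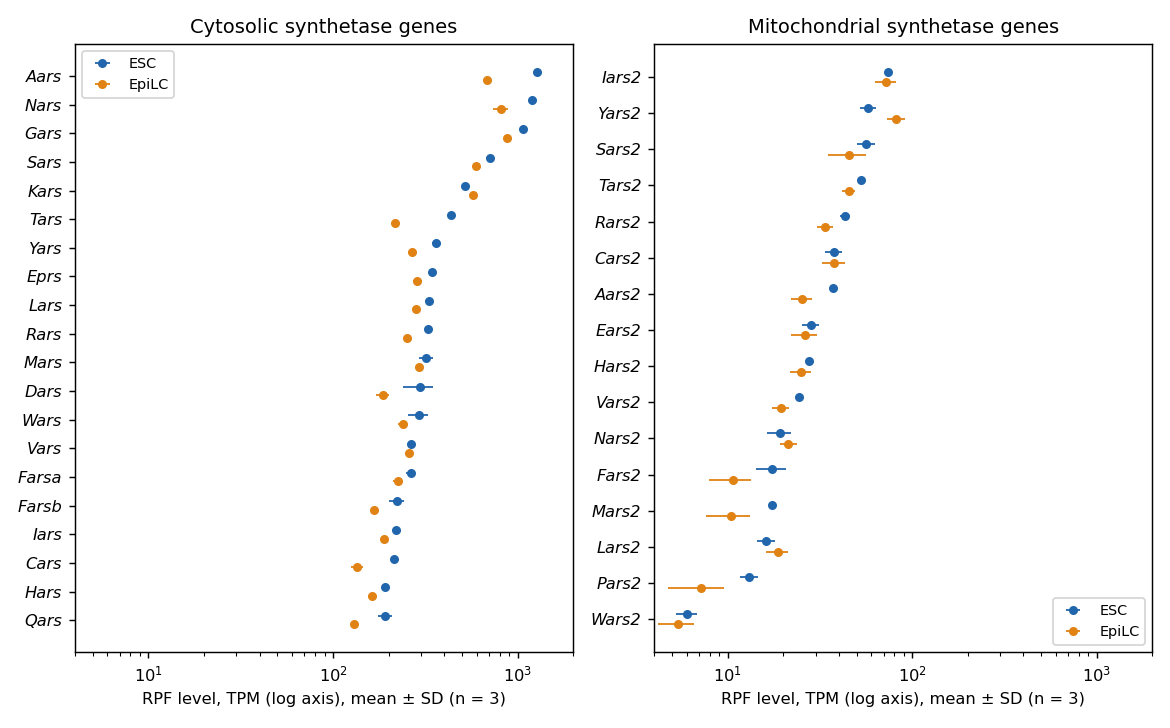
RPF level of the synthetase genes per length (TPM, log axis) in ESCs (blue) and EpiLCs (orange), mean and SD of 3 libraries, ordered by the ESC level. The cytosolic genes lie between 131 and 1266 TPM and the mitochondrial genes between 5.41 and 82.2 TPM, with no overlap between the 2 sets.

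GC content of the coding sequence had a median of 51.8% in the cytosolic genes and 55.2% in the mitochondrial ones, beside 53.1% over all tested genes. Spearman's rho of GC with the RPF change was 0.26 over the 20 cytosolic genes and -0.46 over the 17 mitochondrial ones, and with the mRNA change 0.18 and -0.66. These are descriptions across genes that share the same libraries. 

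Genes for proteins that work beside the synthetases were called about as often as all genes in RPF. Of 16 such genes 15 were tested, and Aarsd1 was at 0 counts in every library. In RPF 3 rose and 4 fell, and in mRNA 4 rose and 2 fell, with a median change of 0.01 and 0.00. Of all tested genes 31.1% rose and 28.7% fell in RPF, and 34.6% rose and 30.7% fell in mRNA, so these counts show nothing particular to the set. Dtd1, which removes D-amino acids from tRNA, rose by 1.77 ± 0.13 in RPF (adjusted p 2.28e-11). Tarsl2, another threonyl enzyme, rose by 1.33 ± 0.19 (adjusted p 1.10e-06), while Tars itself fell. The kinase Pstk, which acts on the tRNA of selenocysteine, rose by 0.70 ± 0.11 (adjusted p 6.07e-06). On the falling side were Prorsd1 (-0.81 ± 0.27, adjusted p 0.0131) and Eef1e1, a scaffold protein of the multi-synthetase complex (-0.66 ± 0.14, adjusted p 0.000179). The scaffold gene Aimp1 had -0.52 and Aimp2 0.00 in RPF, so the 3 scaffold genes did not share a change. The mitochondrial amidotransferase gene Gatb had -0.35.

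Genes of the amino acid response mostly fell, as the cytosolic synthetase genes did. Of 20 genes on this list 19 were tested, and in RPF 12 fell and 3 rose, in mRNA 13 fell and 2 rose, where 28.7% of all tested genes fell and 31.1% rose in RPF, and 30.7% fell and 34.6% rose in mRNA. The median change was -0.43 in RPF and -0.44 in mRNA, beside 0.01 and 0.03 over all genes. The largest RPF changes were in Nupr1, a stress-induced chromatin protein (-3.23 ± 0.23), and Slc7a1, a transporter of cationic amino acids (-1.94 ± 0.10). Cth, an enzyme of cysteine synthesis, had -1.87 ± 0.08, and Asns, asparagine synthetase, had -1.85 ± 0.06. Shmt2, the mitochondrial serine hydroxymethyltransferase, had -1.15 ± 0.06. All 5 passed the test, with adjusted p from 6.06e-18 to 1.16e-11. 

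Atf4 itself, which encodes the factor, had -0.44 ± 0.06 in mRNA (adjusted p 2.38e-07) and -0.86 ± 0.10 in RPF (adjusted p 4.93e-08). Its TE change was -0.41 ± 0.11 with an adjusted p of 0.0714 in limma. It passed with DESeq2 (adjusted p 0.0390), with the replicate block (0.0364) and with the GC correction and block (0.038). Among fits with a library left out, it passed without ESC RPF replicate 3 (0.0367) and without EpiLC RPF replicate 1 (0.0363). The Atf4 TE change did not pass in any other fit, edgeR among them. Phgdh, Ddit4 and Cebpb were the 3 genes that rose in RPF, by 0.31, 0.33 and 0.62, and with the GC correction none of the list rose.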

How the data were processed

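Ribosome profiling and total RNA libraries of ESCs and EpiLCs (4 groups of 3, grouped and numbered by the sample titles) were analysed from the raw counts per gene that the authors deposited. Per the file headers, the submitters' processing notes and the methods of the study, the authors trimmed reads with cutadapt 1.14 (26 to 32 nt kept for RPF, 32 nt or longer for total RNA), kept reads with a single mapping position on mm10 with STAR 2.5.3a, and counted the 5′ end of each read on the sense strand with featureCounts 1.5.3, in coding sequence without its first 45 nt. How PCR duplicates were treated is not given in the sources used here, so reads may not be independent molecules. Reads from near-identical copies are lost by this mapping.

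Gene symbols were taken from a table of gene names, which matched 22385 of 22462 IDs. Genes with at least 3 CPM in at least 3 libraries were tested. limma 3.58.1 with voom on TMM-scaled counts (edgeR 4.0.16, R 4.3.3) fitted 1 model with the 4 groups over all 12 libraries, after the study's own use of limma and of the interaction term for TE, with Benjamini-Hochberg adjustment over 11750 genes. A gene was said to rise or fall at an adjusted p below 0.05. Alternatives were edgeR's quasi-likelihood test, DESeq2 1.42.0, other scalings and filters, a replicate block, a GC correction and each library left out. GC came from the coding sequence of annotated transcripts, since no genome was used. Values printed as CPM use TMM factors, and TPM are counts per kb of counted sequence, scaled to the same sum in every library. The fit was tested first on simulated data in which 200 genes changed in EpiLC RPF only. At a log2 change of 0.5, 38.5% of them were recovered in RPF and 11% in TE. At a log2 change of 1 it was 80% and 75.5%, beside 6 and 15 false calls.

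The members and the gene lists were chosen with earlier results of these data known. The members are named with both changes, apart from 1 that is counted but not reported here. Values per library are given for the 6 members with the largest RPF change past the test, for Farsa and Farsb, and for the 3 with the smallest p for TE, and Yars2, Kars and Dars were added after their values were seen. Of the other lists the 5 largest RPF changes past the test are given. Libraries of the same group differed by more than sampling noise in all 12 pairs (chi-square over degrees of freedom 2.51 to 7.75), and each was counted as its own replicate.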

Additional observations from a re-analysis of the deposited data

How the results depend on the processing

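The count of synthetase genes that fell or rose kept within 1.5 times its value in most fits. With a log2 change above 1 required as well, 1 cytosolic gene fell in mRNA and 1 in RPF, 0 mitochondrial genes fell in either, and 0 genes rose. The 1 cytosolic gene that rose in mRNA (Kars) became 0 with DESeq2, with RLE factors, with every gene of at least 1 count, with at least 10 counts in every library, and with both the GC correction and the block. With total counts in place of TMM, 1 cytosolic gene rose in RPF (Kars, 0.12, adjusted p 0.0347). Leaving out a library in turn gave 18 to 19 cytosolic genes that fell in mRNA, 0 to 1 that rose, 5 to 9 mitochondrial genes that fell (5 without EpiLC total RNA replicate 1) and 2 to 3 that rose. For RPF it gave 17 to 18 and 0 cytosolic, and 7 to 9 and 1 to 2 mitochondrial, 1 without ESC RPF replicate 1 or EpiLC RPF replicate 1. TE gave 0 members in every fit, over all genes 67 rose and 74 fell, with DESeq2 148 and 140, with the replicate block 128 and 133, and with total counts 84 and 51, so that 62.2% of the TE calls were higher against 47.5%.

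No member that passed the test changed its direction in any fit. Cars2, whose RPF change of 0.01 did not pass, had -0.0122 with edgeR, -0.0402 with DESeq2, -0.0192 with RLE factors, -0.0180 with every gene of at least 1 count, -0.0107 with the GC correction and -0.00687 with that and the block. With a library left out it ran from -0.108 to 0.0578. The RPF change of Nars2, which did not pass either, ran from -0.00816 to 0.154. Over genes that had at least 10 counts throughout, the TE level of the cytosolic genes was 0.23 in ESCs and that of the mitochondrial genes -0.29 in EpiLCs. Without the length, the ratio of Farsa to Farsb was 0.701 in ESC total RNA, 0.802 in EpiLC total RNA and 1.15 in EpiLC RPF.

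For the other lists all alternatives were chosen after seeing the data. The companion genes that fell in mRNA were 4 with RLE factors and 4 with GC correction and block, and 2 to 4 with a library left out. On the amino acid response list 0 genes rose with the GC correction in either assay, and 0 with the block added, and 0 to 3 rose in RPF with a library left out (0 without ESC RPF replicate 3, 1 without EpiLC RPF replicate 2 or 3). For TE 1 gene of that list, Atf4, fell with DESeq2, 1 with the replicate block, 1 with the GC correction and block, 0 with the replicate block by culture, and 0 to 1 with a library left out. The cause of these differences was not tested.

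Same-numbered libraries of different groups had mean correlations of their deviations from -0.0407 to 0.0724, with single values from -0.182 to 0.163. Such correlations cannot settle whether libraries share a culture, and the study describes the total mRNA as matched to the RPFs. The main fit did not take the numbers as pairs, and the TE level used them to give a spread. With the replicate block 19 and 9 members fell in mRNA, 18 and 8 in RPF, and 0 moved in TE, as without it. EpiLC RPF replicate 2, with 2681439 counts, had the fewest counts behind the mitochondrial values, 14 for Wars2 and 15 for Pars2.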
